A study of Mus musculus with 60 samples.

Results

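The genes described here encode the metalloproteinases of the ADAM, ADAMTS and MMP families and the ADAMTS-like proteins, which lack the protease domain. They were chosen by their mouse gene symbol alone (Adam, Adamts, Adamtsl or Mmp followed by a number and an optional letter). Of the 16994 genes with a symbol and at least 1 assigned peak in any of 12 CUT&RUN peak lists, 60 had such a symbol. CUT&RUN-seq cuts out and sequences the DNA under an antibody inside isolated nuclei, and a peak is a stretch where the released fragments pile up. The antibodies were against H4K8ac, an acetylation of histone H4 found at active promoters and enhancers, and H3K27me3, a methylation of histone H3 laid down by Polycomb repressive complex 2 at silenced genes.

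Nuclei came from the hippocampus of male Emx1-NuTRAP mice (an Emx1-IRES-Cre knock-in crossed with the NuTRAP reporter line, which both conditions carried). Emx1-Cre turns the nuclear and ribosomal tags on in the lineage that gives mostly excitatory neurons, and also in progenitors of that lineage, so that the tag is not specific to 1 neuron type. From postnatal day 21 to 41, pairs of mice had free use of a wheel (early-life exercise, ELE) or were housed without one (sedentary), and tissue was taken the day after. In the SIT arm, 1 homogenate of the bilateral hippocampi gave nuclei and RNA at the same time. In the left separate and right separate arms, 1 hemisphere of a mouse gave nuclei alone. The labels gave 4 samples per antibody and condition for SIT and 3 for each separate arm. There was 1 list for each mark, condition and arm, so no replicate spread could be given. The study worked with fewer mice in SIT than the labels give, and left out ELE H4K8ac libraries, most of them in the separate arms, where their split between left and right is not stated in the sources used here. The lists hold positions and no signal, so the depth behind them is unknown, and fewer cells with a mark and less mark per cell cannot be told apart. Among the 12 lists the number of peaks ran from 9899 to 38136, and the ELE lists were longer than the sedentary ones in SIT for both marks and shorter in the right separate arm for both marks. Of the excitatory neuron genes Camk2a, Slc17a7, Neurod2, Neurod6, Emx1 and Prox1, 4 to 6 of 6 were listed for H4K8ac in every list, whereas of the interneuron genes Gad1, Gad2, Slc32a1, Pvalb and Sst, 0 to 2 of 5 were listed for H4K8ac and 4 of 5 for H3K27me3. Of the excitatory neuron genes, Emx1 and Prox1 also had H3K27me3, in 5 and 6 lists. Of the genes of other cell types, 1 to 4 of 4 astrocyte, 1 to 3 of 4 oligodendrocyte, 1 to 2 of 4 microglial and 1 of 3 endothelial genes were listed for H4K8ac in a list, and for H3K27me3 3, 1, 0 to 1, and 2 of these. Aqp4, Mbp, P2ry12 and Pecam1 were listed for H4K8ac in 6 of 6 lists (Aqp4 for H3K27me3 as well), whereas Mag, Cx3cr1, Cldn5 and Flt1 were listed for H4K8ac in 0 lists and for H3K27me3 in 6, 4, 6 and 6. The part of these cell types in the results was not tested.

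ADAM proteins are membrane-anchored proteases that shed the outer part of other surface proteins, such as the amyloid precursor protein and Notch, and some members in neurons have lost the catalytic site and act as receptors or adhesion partners. ADAMTS proteins are secreted and cut matrix components, among them the lecticans of perineuronal nets and procollagens. MMP proteins cut collagens, laminins and many cell surface proteins, are made as inactive precursors, and are held in check by the TIMP inhibitors. In the hippocampus they are known for remodelling the matrix around synapses.

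The genes were first sorted by the marks they carried. H4K8ac in at least 1 list with no H3K27me3 peak in any list was found for 22 of the 60 genes (56.5% of all listed genes were in this class), H3K27me3 without H4K8ac for 18 (20.1% of all genes), and both marks for 20 (23.5% of all genes). Any H4K8ac peak was thus found for 42 genes (79.9% of all genes) and any H3K27me3 peak for 38 (43.5% of all genes). Against the proportions among all genes, the family therefore held fewer genes with H4K8ac alone and more with H3K27me3 alone or with both marks. A peak assigned to the gene in 6 of 6 H4K8ac lists was found for 9 genes (19.3% of all genes), namely Adam7, Adam23, Adam30, Adamts3, Adamts6, Adamts17, Adamtsl1, Adamtsl2 and Mmp16. In 6 of 6 H3K27me3 lists there were 15 genes (16.5% of all genes), namely Adam33, Adam34, Adamts2, Adamts5, Adamts9, Adamts13, Adamts16, Adamts19, Adamts20, Adamtsl1, Adamtsl3, Mmp2, Mmp9, Mmp25 and Mmp28. Adamtsl1 was the single gene on both of these lists. The H4K8ac count depended on the lists used: it was 15 without the ELE separate lists, 5 with the widest 50% of each list and 3 with promoter peaks alone.

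**Figure D1:**
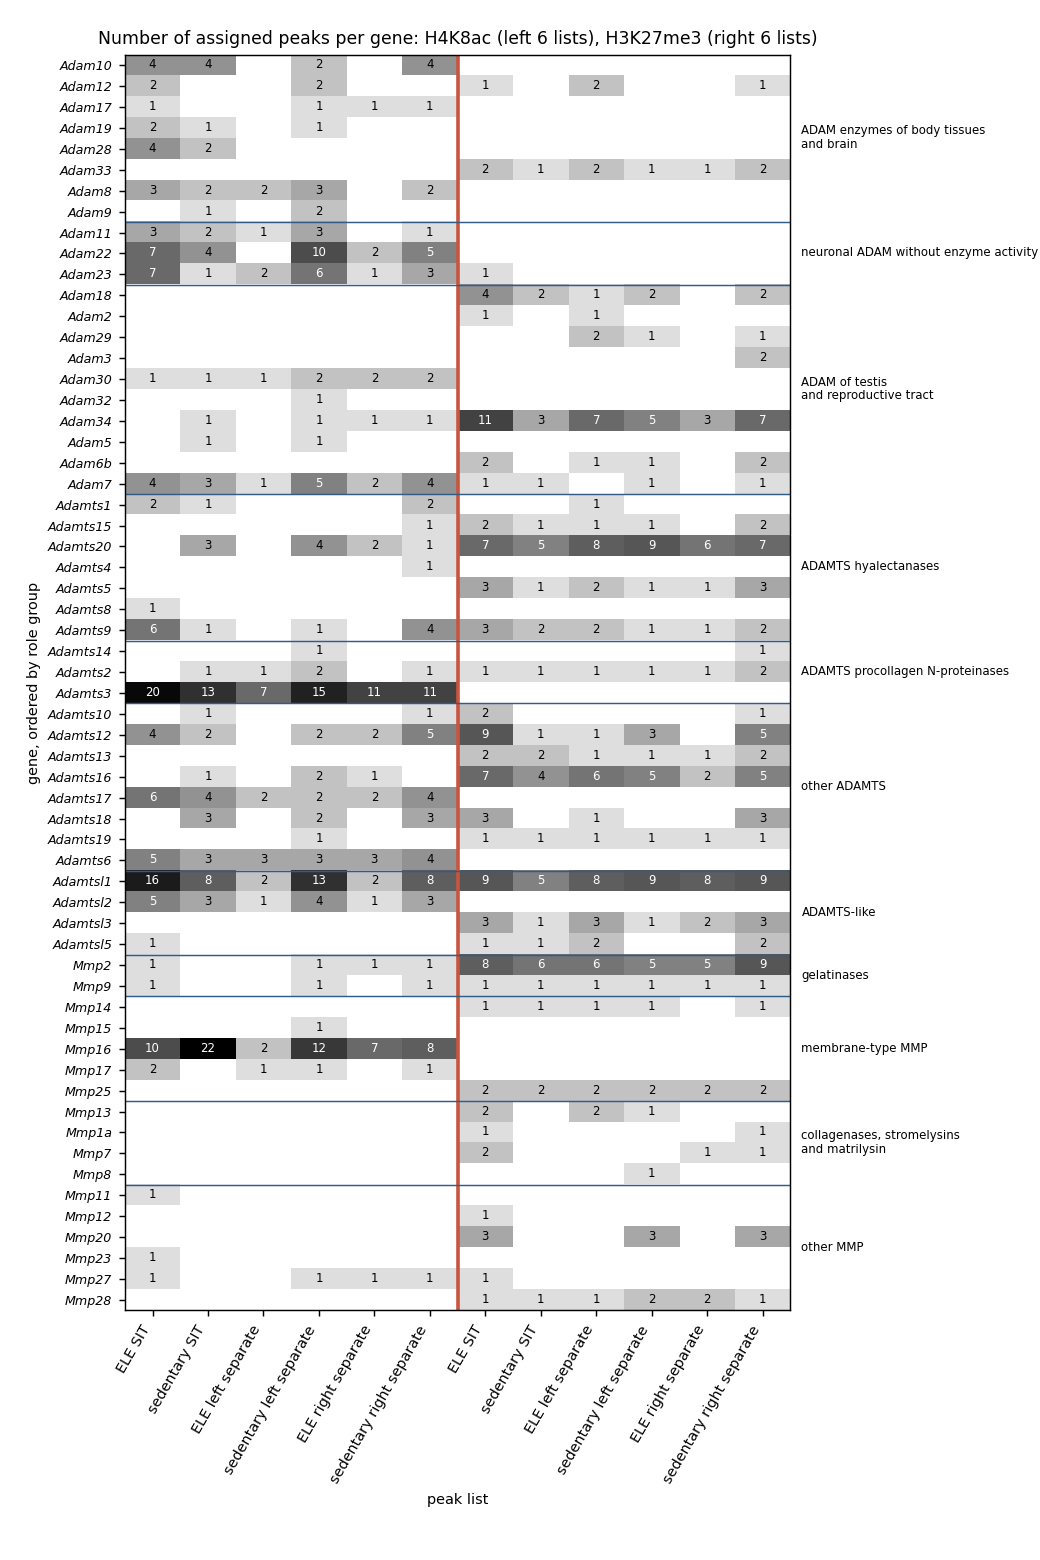
Number of peaks assigned to each of the 60 genes (rows, by role group) in each of the 12 lists (columns, H4K8ac left of the red line, H3K27me3 right of it), with darker cells for more peaks and white for none. Adamts3 and Mmp16 reached 20 and 22 H4K8ac peaks in a list and had no H3K27me3 peak, while Mmp25 and Mmp28 had 1 or 2 H3K27me3 peaks in each list and no H4K8ac peak.

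In the single lists the share of the family that was listed lay below that of all genes for H4K8ac and above it for H3K27me3, in every one of the 12. For H4K8ac, SIT listed 28 of the 60 genes after ELE (63.2% of all genes were listed there) and 26 in sedentary mice (51.0% of all genes). The left separate arm listed 13 genes after ELE (30.0% of all genes) and 33 in sedentary mice (60.1% of all genes), and the right separate arm 17 (34.1% of all genes) and 28 (49.0% of all genes). For H3K27me3, SIT listed 33 genes after ELE (38.1% of all genes) and 21 in sedentary mice (22.5% of all genes). The left separate arm listed 27 (30.6% of all genes) and 25 (27.5% of all genes), and the right separate arm 16 (20.6% of all genes) and 31 (35.4% of all genes). The family's share was lowest in the shortest list of each mark, as was that of all genes.

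**Figure D2:**
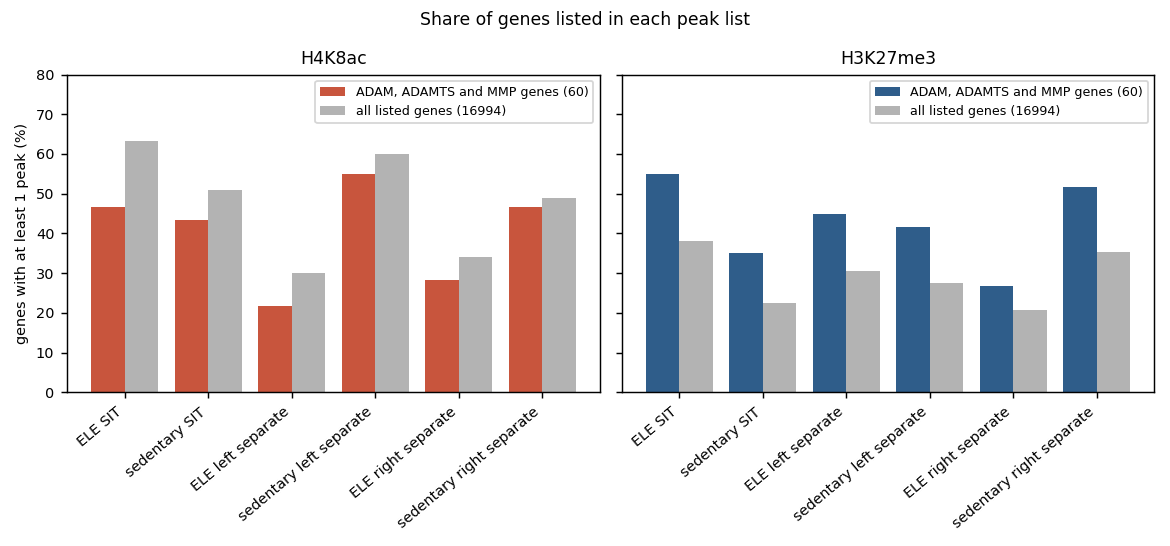
Share of genes with at least 1 assigned peak (y axis, %) in each list (x axis), for the 60 ADAM, ADAMTS and MMP genes (coloured) and for all 16994 listed genes (grey). The coloured bar is the lower in each of the 6 H4K8ac lists and the higher in each of the 6 H3K27me3 lists; each bar is 1 list, so none has an error.

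The sequence before the gene start was read beside the marks over it. The RefSeq promoter table for GRCm38.p6 held windows for 35 of the 60 genes (40 windows, since some genes have several starts), and each was read as the 250 bases before the start. Peaks were counted over a window whatever gene they had been assigned to. H4K8ac of at least 1 list and no H3K27me3 lay over 10 of these windows (25.8% of all windows in the table). H3K27me3 of at least 1 list and no H4K8ac lay over 11 (12.3% of all windows). No window lay under both marks (0.268% of all windows), and 19 lay under neither (61.6% of all windows). The number of CpG dinucleotides (CG) was a median of 16 in windows under H4K8ac (7 to 35), 17.0 in windows under H3K27me3 (1 to 39), and 2.0 in the 19 windows under neither (0 to 32). Of these 19, 8 belonged to the cluster of MMP genes on chromosome 9, and the other 11 had a median of 6.0. Over all 32851 windows of the table the medians were 13.0, 6.0 and 4.0. The 11 windows under H3K27me3 in the family were thus richer in CG than those of all genes under that mark (medians of 17.0 and 6.0). This was not limited to H3K27me3: the median over the 40 windows of the family was 11.5, against 6.0 over all windows. Under H4K8ac it was 16 against 13.0. Under neither mark it was lower in the family (2.0 against 4.0), but not outside the chromosome 9 cluster (6.0). Adamts13, with 1 CG and a peak in 6 H3K27me3 lists, had the poorest of the windows under H3K27me3. These counts are a description and were not tested.

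The windows of 3 genes with H4K8ac and no H3K27me3 peak over the start are shown with each CG in capitals. These were the 3 richest in CG of the 10 windows under H4K8ac, whose median was 16. They are Adamts3 at chr5:89883335-89883584 (minus strand), Adam23 at chr1:63445641-63445890 (plus strand) and Adam17 at chr12:21373633-21373882 (minus strand), which held 35, 27 and 23 CG and lay under H4K8ac in 1, 4 and 4 lists.
Adamts3: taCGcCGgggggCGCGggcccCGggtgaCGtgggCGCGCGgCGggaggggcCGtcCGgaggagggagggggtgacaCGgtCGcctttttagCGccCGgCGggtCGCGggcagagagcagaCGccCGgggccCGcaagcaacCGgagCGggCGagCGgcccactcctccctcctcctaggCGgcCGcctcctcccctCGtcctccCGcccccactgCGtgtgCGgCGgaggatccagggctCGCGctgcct
Adam23: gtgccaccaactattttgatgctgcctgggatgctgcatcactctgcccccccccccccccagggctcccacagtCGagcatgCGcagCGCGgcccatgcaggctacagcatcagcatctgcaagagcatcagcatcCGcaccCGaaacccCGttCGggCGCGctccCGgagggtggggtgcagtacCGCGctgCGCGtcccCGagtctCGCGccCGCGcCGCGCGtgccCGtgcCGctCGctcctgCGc
Adam17: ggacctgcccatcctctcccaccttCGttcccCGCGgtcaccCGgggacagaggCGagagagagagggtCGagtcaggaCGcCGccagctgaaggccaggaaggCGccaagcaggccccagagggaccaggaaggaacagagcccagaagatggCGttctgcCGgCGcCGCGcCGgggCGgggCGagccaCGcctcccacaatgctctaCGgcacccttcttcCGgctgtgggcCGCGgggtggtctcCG

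Next to them stand the windows of 3 genes with H3K27me3 over the start in 6 of 6 lists and no H4K8ac peak in any list, again with CG in capitals. These are Adamtsl3 at chr7:82335444-82335693 (plus strand), Mmp25 at chr17:23645270-23645519 (minus strand) and Mmp28 at chr11:83463041-83463290 (minus strand), with 39, 17 and 15 CG.
Adamtsl3: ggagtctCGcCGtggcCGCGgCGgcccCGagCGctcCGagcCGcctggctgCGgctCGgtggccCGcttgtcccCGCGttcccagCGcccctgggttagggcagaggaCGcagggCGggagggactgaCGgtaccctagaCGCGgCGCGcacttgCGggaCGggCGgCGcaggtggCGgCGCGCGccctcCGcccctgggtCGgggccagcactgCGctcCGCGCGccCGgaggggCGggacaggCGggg
Mmp25: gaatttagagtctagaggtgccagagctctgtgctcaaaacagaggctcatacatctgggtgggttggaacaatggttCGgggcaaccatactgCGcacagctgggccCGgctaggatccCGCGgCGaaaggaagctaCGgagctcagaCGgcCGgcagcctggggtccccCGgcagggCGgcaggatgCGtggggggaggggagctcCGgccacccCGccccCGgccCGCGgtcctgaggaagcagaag
Mmp28: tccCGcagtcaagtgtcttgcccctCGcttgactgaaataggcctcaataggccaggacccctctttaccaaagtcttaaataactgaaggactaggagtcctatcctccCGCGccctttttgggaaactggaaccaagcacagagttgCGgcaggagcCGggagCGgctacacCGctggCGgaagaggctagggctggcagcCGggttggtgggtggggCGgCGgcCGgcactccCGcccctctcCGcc

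The third kind of window was poor in CG and, but for that of Mmp8, which lay under an H3K27me3 peak in 1 list, under no peak of either mark. It was found at the cluster of MMP genes on chromosome 9 (7272514 to 7699585), which holds the collagenases Mmp1a, Mmp8 and Mmp13, the matrilysin Mmp7, the macrophage elastase Mmp12, the enamel protease Mmp20 and Mmp27, and also Mmp1b, Mmp3 and Mmp10, which had no assigned peak. The 9 windows of the 7 genes with a peak held 0 to 7 CG. TGANTCA, with any base at N, covers the sites TGACTCA and TGAGTCA, which AP-1 factors such as Fos and Jun bind. The motif reads the same on both strands, was counted without separating its forms, and was present in windows of 5 of the 7 genes. Over the family it was present in 7 of 40 windows (17.5%), against 6.75% of all windows, and in none of the 13 ADAMTS and ADAMTS-like windows. Mmp13 at chr9:7272264-7272513 (plus strand), Mmp7 at chr9:7691840-7692089 (plus strand) and Mmp1a at chr9:7463891-7464140 (plus strand) show it in capitals, beginning 35, 63 and 73 bases before the start.
Mmp13: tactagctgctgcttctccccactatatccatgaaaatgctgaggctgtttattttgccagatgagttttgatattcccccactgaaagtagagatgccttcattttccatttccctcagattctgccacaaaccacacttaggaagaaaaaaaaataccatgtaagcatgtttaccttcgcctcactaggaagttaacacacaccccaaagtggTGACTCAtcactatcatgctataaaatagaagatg
Mmp7: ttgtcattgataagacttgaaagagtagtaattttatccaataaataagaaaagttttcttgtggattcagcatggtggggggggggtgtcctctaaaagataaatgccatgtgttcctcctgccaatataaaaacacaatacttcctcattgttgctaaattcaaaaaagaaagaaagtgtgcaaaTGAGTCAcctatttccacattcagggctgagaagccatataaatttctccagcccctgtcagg
Mmp1a: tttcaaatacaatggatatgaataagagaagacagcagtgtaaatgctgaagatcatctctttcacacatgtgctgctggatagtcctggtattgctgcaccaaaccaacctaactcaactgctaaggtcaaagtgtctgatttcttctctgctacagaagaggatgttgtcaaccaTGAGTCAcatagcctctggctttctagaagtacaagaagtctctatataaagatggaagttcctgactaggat

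**Figure D3:**
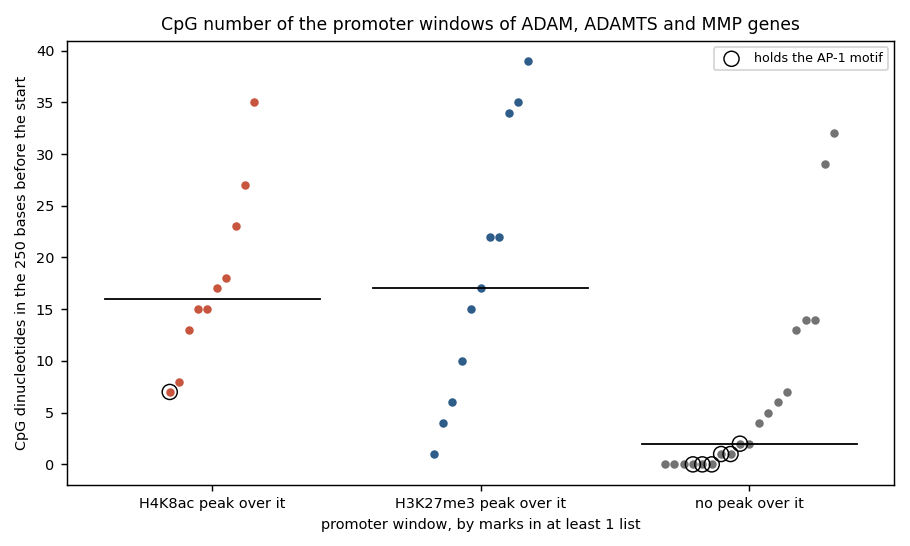
Number of CpG dinucleotides (y axis) in the 250 bases before the start for the 40 promoter windows of 35 genes, grouped by the mark of which at least 1 list had a peak over the window (x axis), with 1 point a window, a line at the median and a ring around windows with the motif TGANTCA, any base at N (AP-1 motif in the key). The medians are 16 and 17.0 under the marks and 2.0 under neither, and 6 of the 7 ringed windows lie under neither mark.

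The marks at this cluster were sparse and uneven. Of its 10 genes, of which GENCODE M21 gives Mmp1a as a polymorphic pseudogene and the others as protein-coding, 7 had an assigned peak. H4K8ac was listed for 1 of them, Mmp27, with 1 peak each in the ELE SIT, sedentary left, ELE right and sedentary right lists. H3K27me3 was listed for 6 of these 7 genes in the ELE SIT list (which listed 38.1% of all genes with a peak) and for none in the sedentary SIT list (22.5%). It was listed for 1 in the ELE left, 3 in the sedentary left, 1 in the ELE right and 3 in the sedentary right list. No gene of the cluster was listed for H3K27me3 in more than 3 of 6 lists, and SIT and the right separate arm differed in opposite directions. Most of these peaks lay outside the genes. In the ELE SIT list the H3K27me3 peak lay over the gene for Mmp13 and Mmp20 alone, and no peak of Mmp1a, Mmp7, Mmp12 or Mmp27 lay over the gene in any list. The 4 H4K8ac peaks of Mmp27 fell in 1 region outside the gene, 22.5 kb from its start. Mmp1b, Mmp10 and the stromelysin Mmp3 had no peak over their bodies either.

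Among the neuronal ADAM genes without enzyme activity, all 3 were listed for H4K8ac in at least 1 list, as were 79.9% of all genes. Adam23, an adhesion protein that binds LGI1 at synapses, had 7 H4K8ac peaks in the ELE SIT list and 1 in the sedentary SIT list, 2 and 6 in the left separate lists, and 1 and 3 in the right separate lists (ELE before sedentary here and in all pairs below). Adam22, the LGI1 receptor at the synapse, had 7 and 4, 0 and 10, and 2 and 5. Adam11, of the same subgroup, had 3 and 2, 1 and 3, and 0 and 1. The ELE list held more peaks of each in SIT and fewer in both separate arms. H3K27me3 was absent from Adam11 and Adam22 in all 6 lists, and Adam23 had a single H3K27me3 peak, in the ELE SIT list, 43.7 kb outside the gene. All 28 Adam22 peaks and 18 of 20 Adam23 peaks lay over the gene, but all 10 Adam11 peaks lay outside it, over no protein-coding gene, at 5.34 kb or more from its start.

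Of the 8 ADAM enzymes of body tissues and brain, 7 were listed for H4K8ac in at least 1 list (79.9% of all genes) and 2 for H3K27me3 (43.5% of all genes). Adam10, the main alpha-secretase of neurons, had 4 and 4 H4K8ac peaks in SIT, 0 and 2 in the left separate and 0 and 4 in the right separate arm, and no H3K27me3 peak. However, 10 of its 14 peaks lay within Lipc, a neighbouring lipase gene, and 3 over Adam10 itself. Adam17, which sheds tumour necrosis factor, had 1 peak in each of 4 lists (ELE SIT, sedentary left, ELE right and sedentary right), and these merged into 1 region of 2218 bp over its start. Adam8, of immune cells and glia, was listed in 5 of 6 H4K8ac lists with 2 or 3 peaks, of which 6 of 12 lay within the neighbouring gene Tubgcp2. Adam33 was the exception in this group, with 1 or 2 H3K27me3 peaks in each of 6 lists and no H4K8ac peak.

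Peaks were given to genes by distance, and several ADAM genes of the testis had every peak of a mark outside the gene. Adam30 was listed in 6 of 6 H4K8ac lists with 1 or 2 peaks each, yet all 9 lay within Notch2, the neighbouring receptor gene, with the recurring region 51.1 kb from the start of Adam30. The 19 H4K8ac peaks of Adam7 all lay outside it and over no protein-coding gene, as did the 36 H3K27me3 and 4 H4K8ac peaks of Adam34. Other testis genes went the other way. Adam18, listed in 5 H3K27me3 lists, had all 11 of its H3K27me3 peaks over its own gene. The H3K27me3 peaks of Adam2 and Adam3 and the H4K8ac peaks of Adam5, 2 for each gene, also lay over the gene. Over the family, 312 of 471 H4K8ac peaks (66.2%) and 240 of 392 H3K27me3 peaks (61.2%) lay over the gene they were assigned to. Another 32 H4K8ac (6.79%) and 3 H3K27me3 peaks (0.765%) lay over another protein-coding gene alone. Of the 42 genes with H4K8ac, 9 had every peak outside their own body, and 11 of the 38 genes with H3K27me3.

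Among the procollagen N-proteinases, Adamts3 had the most H4K8ac peaks of the family over the 6 lists together (77, against 61 for Mmp16), though Mmp16 had more in the sedentary SIT list. Adamts3, which trims procollagen II and activates vascular endothelial growth factor C, had 20 and 13 H4K8ac peaks in SIT, 7 and 15 in the left separate and 11 and 11 in the right separate arm, and no H3K27me3 peak. Its peaks covered 55790 and 20781 bp in SIT, 17263 and 34788 bp in the left separate and 22762 and 37226 bp in the right separate arm. It held the widest peak of the family in 5 of 6 H4K8ac lists, of 4667 to 7326 bp and in each case in the same intronic region, 33.7 kb from the start of the gene. Adam8 held it in the ELE left list, with 5107 bp. Its relatives were marked otherwise: Adamts2 had 1 or 2 H3K27me3 peaks in each of 6 lists beside H4K8ac in 4, and Adamts14 1 peak of each mark.

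Of the 238 regions that the family's H4K8ac peaks merged into, 8 recurred in 6 lists, and 4 of these belonged to Adamts3, 2 to Adamts6, and 1 each to Adamtsl2 and Adam30. The middle of the stretch of 1508 bp that all 6 lists shared in the widest Adamts3 region is shown from the reference genome (GRCm38.p6, chr5:89846965-89847264, plus strand, CG in capitals). It held 2 CG in 300 bases and 34.0% G and C, against 35 CG in 250 bases and 78.0% in the window before the start of the same gene.
Adamts3 intron: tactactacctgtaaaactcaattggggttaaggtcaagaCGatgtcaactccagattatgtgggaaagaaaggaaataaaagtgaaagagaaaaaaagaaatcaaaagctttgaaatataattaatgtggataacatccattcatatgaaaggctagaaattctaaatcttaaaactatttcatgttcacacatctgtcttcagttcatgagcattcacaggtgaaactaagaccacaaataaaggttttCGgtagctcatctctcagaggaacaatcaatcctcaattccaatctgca

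Among the 7 hyalectanases, which cleave aggrecan, versican and brevican, no gene was listed for H4K8ac in 6 lists (19.3% of all genes), and Adamts5, Adamts9 and Adamts20 were listed for H3K27me3 in 6 (16.5% of all genes). Adamts5, the main aggrecanase, had 3 and 1 H3K27me3 peaks in SIT, 2 and 1 in the left separate and 1 and 3 in the right separate arm, and no H4K8ac peak. Adamts20 had 7 and 5, 8 and 9, and 6 and 7 H3K27me3 peaks, and 0 and 3, 0 and 4, and 2 and 1 H4K8ac peaks. Of its 42 H3K27me3 peaks, 30 lay outside the gene, and a region of 23680 bp beginning 2.81 kb from its start recurred in 6 lists. It held the widest H3K27me3 peak of the family in 3 lists, of up to 23130 bp in the ELE SIT list. Adamts9 had 3 and 2, 2 and 1, and 1 and 2 H3K27me3 peaks with a region over its start in 6 lists, and 6 and 1, 0 and 1, and 0 and 4 H4K8ac peaks elsewhere in and around the gene. Adamts1, which is induced in activated neurons and cuts versican, had H4K8ac in the SIT lists and the sedentary right list, of 2, 1 and 2 peaks, and 1 H3K27me3 peak in the ELE left list. Adamts4, an aggrecanase of oligodendrocytes, had 1 H4K8ac peak, in the sedentary right list. Adamts15 was listed for H3K27me3 in 5 lists, with 2 and 1, 1 and 1, and 0 and 2 peaks. It had 1 H4K8ac peak, in the sedentary right list.

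In the remaining ADAMTS group, Adamts6 and Adamts17 were listed in 6 H4K8ac lists and no H3K27me3 list. Adamts6 had 5 and 3, 3 and 3, and 3 and 4 peaks, with a merged region of 5199 bp around its start to which 6 lists contributed, and 14 of its 21 peaks lay outside the gene. Adamts17 had 6 and 4, 2 and 2, and 2 and 4, all 20 over the gene, but no region of it recurred in more than 3 lists. H3K27me3 was listed in 6 lists for Adamts13, which cuts von Willebrand factor, and for Adamts16 and Adamts19. Adamts16 had 7 and 4, 6 and 5, and 2 and 5 H3K27me3 peaks, over its start and in its introns. Adamts12 was listed in 5 lists of each mark, with 9 and 1, 1 and 3, and 0 and 5 H3K27me3 peaks and 4 and 2, 0 and 2, and 2 and 5 H4K8ac peaks.

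The ADAMTS-like genes showed each pattern. Adamtsl2, which binds fibrillin, had H4K8ac alone, with 5 and 3, 1 and 4, and 1 and 3 peaks and a region in the gene in 6 lists. Adamtsl3 had H3K27me3 alone, with 3 and 1, 3 and 1, and 2 and 3 peaks, and a region of 11785 bp over its start in 6 lists. Adamtsl1 had both marks in 6 of 6 lists, with 16 and 8, 2 and 13, and 2 and 8 H4K8ac peaks and 9 and 5, 8 and 9, and 8 and 9 H3K27me3 peaks. Its 25 H4K8ac and 11 H3K27me3 regions did not overlap anywhere along this gene of 914.0 kb, and came no nearer to each other than 6.76 kb.

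Both gelatinases had H3K27me3 in 6 of 6 lists, as did 16.5% of all genes. Mmp2, made mostly by glia and fibroblasts, had 8 and 6, 6 and 5, and 5 and 9 H3K27me3 peaks, with 1 region of 8414 bp over the start in 6 lists and others up to 71.0 kb outside the gene. Of these 39 peaks, 6 lay over Mmp2 and 33 over no protein-coding gene. Mmp2 had 1 H4K8ac peak in 4 lists, in a region 18.2 kb inside the gene. Mmp9, the activity-regulated gelatinase of neurons, had 1 H3K27me3 peak in each of 6 lists, in a region 5.56 kb inside the gene, and 1 H4K8ac peak in the ELE SIT, sedentary left and sedentary right lists, in a region 0.482 kb outside it. At both genes the marks lay apart, by 14.4 kb at Mmp2 and 6.04 kb at Mmp9.

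Of the 5 membrane-type MMP genes with an assigned peak, none had both marks (23.5% of all genes had both). Mmp16 had H4K8ac alone, with 10 and 22, 2 and 12, and 7 and 8 peaks, of which 38 of 61 lay over the gene and the rest over no protein-coding gene. None of its regions recurred in 6 lists and 2 recurred in 5, both outside the gene, 65.7 and 217.0 kb from its start. Mmp15 and Mmp17 had H4K8ac alone in 1 and 4 lists. Mmp25, of leukocytes, had 2 H3K27me3 peaks in each of 6 lists and no H4K8ac peak. Mmp14, which activates Mmp2, had 1 H3K27me3 peak in 5 lists (none in the ELE right list), all in a region of 5021 bp over its start. Mmp24, the membrane-type MMP of neurons, had no assigned peak. Outside this group, Mmp28, an MMP of epithelia, had 1 or 2 H3K27me3 peaks in each of 6 lists, with the widest peak of the family in the ELE right list (5070 bp).

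Of the 20 genes with both marks, 17 had no H4K8ac region overlapping an H3K27me3 region by 1 bp or more (85.0%), a share like that of all 3990 genes with both marks (85.3%). The exceptions were Adamts12, Adamts16 and Adamtsl5, with 5 overlapping pairs of regions in all. Over the 20 genes the smallest distance between regions of the marks had a median of 11.2 kb and ran from 0 to 53.0 kb, at Adam12. Of the 79 protein-coding genes of the family in GENCODE M21, 15 had their start inside an H4K8ac peak of at least 1 list (26.4% of all 21923 protein-coding genes), 17 inside an H3K27me3 peak (12.1% of all), and none in both (0.246% of all). A start inside an H3K27me3 peak in 6 of 6 lists was found for Adamts9, Adamts13, Adamtsl3, Mmp2, Mmp25 and Mmp28 (4.24% of all), and a start inside an H4K8ac peak in 6 lists for no gene (1.07% of all), the highest being 4 lists at Adam23.

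The marks also differed in where their peaks lay. Of the H3K27me3 peaks of the family, 30.4% were annotated as promoter (within 3 kb of a start), against 20.3% of all H3K27me3 peaks, and the share was higher in each of the 6 lists. Their median distance to the start was 16.7 kb against 29.3 kb. Of the H4K8ac peaks, 45.2% were in introns against 37.4% of all, again higher in each of the 6 lists, and their median distance was 33.7 kb against 22.1 kb. Peaks in distal intergenic DNA were fewer than among all genes in every list, 20.4% against 28.3% for H4K8ac and 32.4% against 45.3% for H3K27me3. The family's genes were also longer: the longest assigned transcript of the family had a median of 28.7 kb against 16.9 kb for all genes, and Adamts3, Mmp16 and Adamtsl1 held 187 of the 471 H4K8ac peaks (39.7%). Single peaks that themselves overlapped a peak in every list of their mark made up 12.1% of the family's H4K8ac peaks, against 14.5% of all. For H3K27me3 they made up 38.3% of its peaks, against 34.8% of all. A peak of the other condition in the same arm overlapped 35.2% of the H4K8ac peaks (45.5% of all) and 58.7% of the H3K27me3 peaks (58.8% of all).

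**Figure D4:**
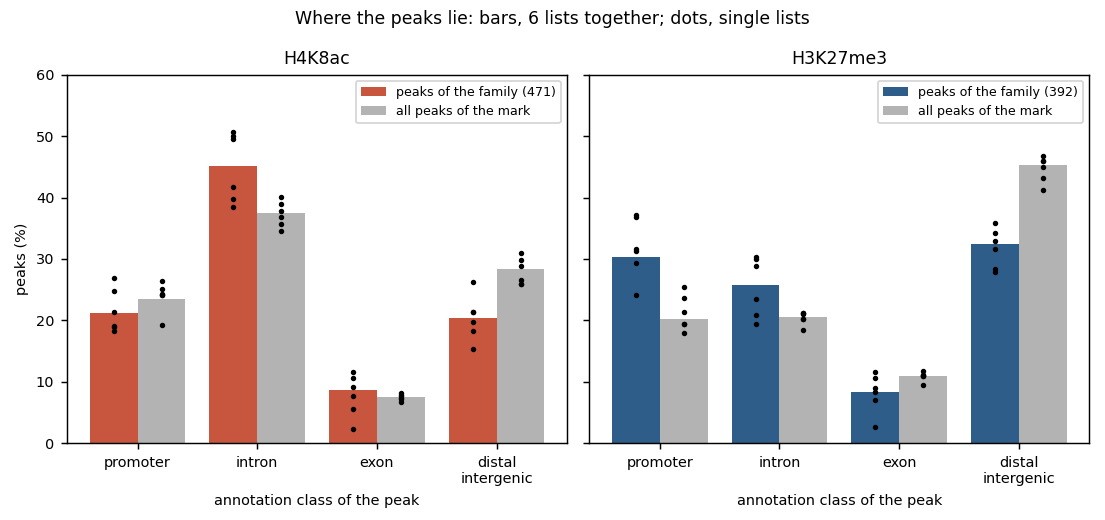
Annotation class (x axis) of the 471 H4K8ac and 392 H3K27me3 peaks assigned to the family (coloured) and of all peaks of each mark (grey), as a share of peaks (y axis, %), with bars for the 6 lists together and dots for single lists. Promoter peaks made up 30.4% of the family's H3K27me3 peaks against 20.3% of all, and introns 45.2% of its H4K8ac peaks against 37.4%.

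Whether a gene carried one mark and not the other was tested on presence in 6 pairs of condition and arm, by exact permutation of the signs (two-sided), on each of the 16994 genes. The smallest p this design allows is 0.03125, and after Benjamini-Hochberg adjustment the smallest over all genes was 0.145, so that 0 genes passed 0.05, while 3668 had an unadjusted p under 0.05. The smallest unadjusted p was reached with H4K8ac by Adam30, Adamts3, Adamts6, Adamts17, Adamtsl2 and Mmp16, 6 of 60 genes (13.7% of all genes), each listed in 6 of 6 pairs for H4K8ac and 0 of 6 for H3K27me3. It was reached with H3K27me3 by Adam33, Adamts5, Adamts13, Adamtsl3, Mmp25 and Mmp28, also 6 of 60 (7.85% of all genes). With promoter peaks alone, H4K8ac without H3K27me3 in 6 of 6 pairs was found for 3 genes (5.90% of all genes) and the reverse for 9 (7.48% of all genes).

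The comparison of ELE with sedentary mice asked which genes gained a mark (listed in the ELE list of an arm alone) or lost it (listed in the sedentary list alone). A gene has 3 arms, over which the exact two-sided test cannot go below p = 0.25, so counts are given with no test. For H4K8ac in SIT, 10 of 60 genes gained (19.3% of all genes) and 8 lost (7.14% of all genes). In the left separate arm 0 gained (2.23% of all genes) and 20 lost (32.4% of all genes), and in the right separate arm 1 gained (4.93% of all genes) and 12 lost (19.8% of all genes). For H3K27me3 in SIT, 12 gained (15.9% of all genes) and 0 lost (0.394% of all genes). In the left separate arm 5 gained (6.24% of all genes) and 3 lost (3.08% of all genes), and in the right separate arm 0 gained (1.14% of all genes) and 15 lost (15.9% of all genes). The direction followed the length of the lists in each arm, as it did for all genes, and SIT and the right separate arm went opposite ways. With the longer list of each arm cut to its widest peaks, to the number of the shorter list, the H4K8ac counts were 9 gained (15.0% of all genes) and 8 lost (9.79%) in SIT, 3 gained (9.46%) and 7 lost (9.49%) in the left separate arm, and 7 gained (11.2%) and 4 lost (9.64%) in the right. The H3K27me3 counts were then 3 gained (3.85% of all genes) and 2 lost (3.18%) in SIT, 3 (4.35%) and 6 (4.64%) in the left separate and 1 (3.46%) and 4 (5.38%) in the right separate arm. The direction turned for H4K8ac on the right and for H3K27me3 on the left, and it did so for all genes as well. For H3K27me3 on the left it also turned in the family, and not for all genes, with promoter peaks alone (2 gained and 3 lost, against 3.90% and 2.11% of all genes) and with the widest 50% (3 and 5, against 4.77% and 2.31%), and without distal intergenic peaks it was 4 and 4. Without distal intergenic peaks, the 12 genes that gained H3K27me3 in SIT fell to 6 (12.1% of all genes).

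**Figure D5:**
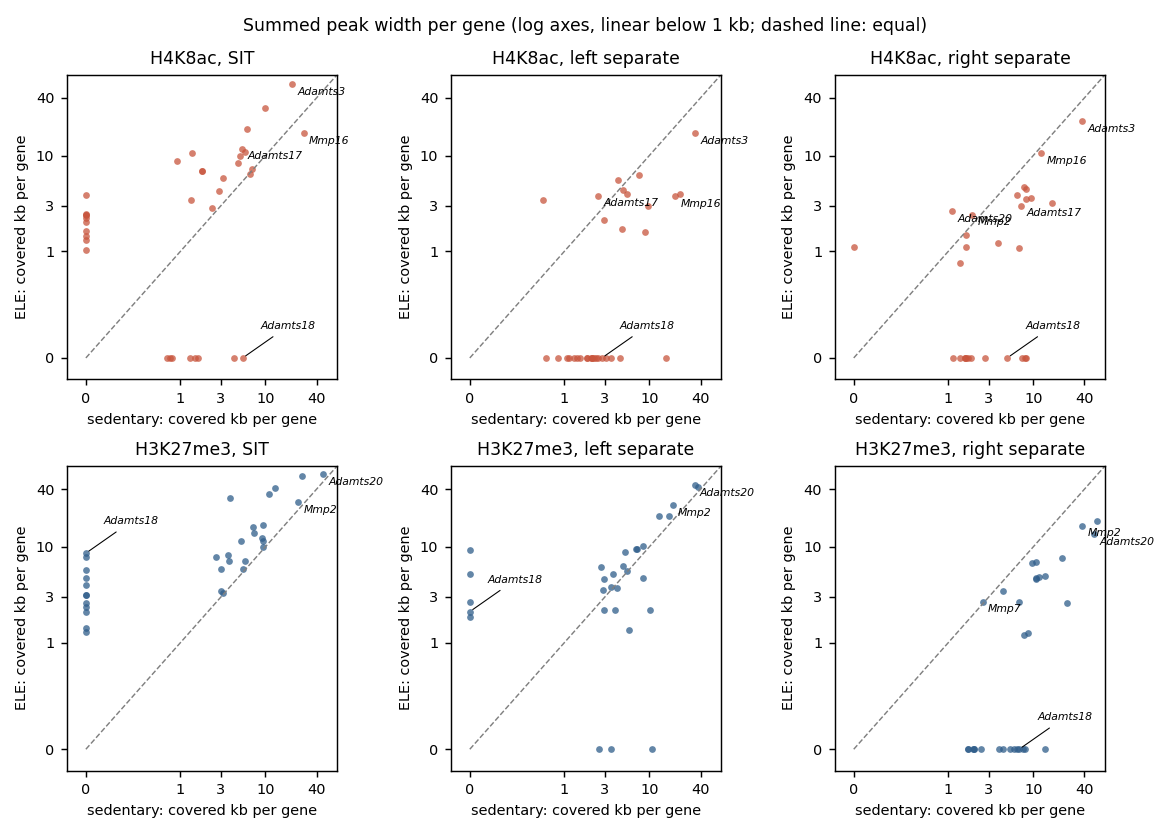
Summed width of the peaks assigned to each gene (kb, log axes, linear below 1 kb) in the sedentary (x axis) and ELE (y axis) list, for H4K8ac (red) and H3K27me3 (blue) in the 3 arms, with 1 point a gene and a dashed line at equality. In SIT the points of genes listed in both conditions lie above the line but for Mmp16 and Adam7 with H4K8ac, and in the right separate arm most lie below it.

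The genes gained for H4K8ac in SIT were Adam12, Adam17, Adamts8, Adamtsl5, Mmp2, Mmp9, Mmp11, Mmp17, Mmp23 and Mmp27, and those lost were Adam5, Adam9, Adam34, Adamts2, Adamts10, Adamts16, Adamts18 and Adamts20. Of the 10 gained, Adam12, Adam17, Mmp2, Mmp9 and Mmp27 were lost in the left separate arm, and Mmp9 and Mmp17 in the right. The 12 genes gained for H3K27me3 in SIT were Adam2, Adam6b, Adam12, Adam23, Adamts10, Adamts18, Mmp1a, Mmp7, Mmp12, Mmp13, Mmp20 and Mmp27, 6 of them in the chromosome 9 cluster. Of these 12, Adam6b, Adam12, Adamts10, Adamts18, Mmp1a and Mmp20 were lost in the right separate arm, and Mmp20 also in the left.

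Adamts18, a secreted protease whose human gene is linked to eye development, was the single gene of the family that changed the same way in 3 arms. It was lost for H4K8ac, 1 of 60 genes (0.712% of all genes). No gene of the family was gained for H4K8ac in 3 arms (0.1% of all genes), gained for H3K27me3 (0.0824% of all genes) or lost for H3K27me3 (0.0177% of all genes). In sedentary mice Adamts18 had 3 H4K8ac peaks with SIT, 2 on the left and 3 on the right, which covered 5407, 2769 and 4941 bp, and 0 in the ELE lists. These 8 peaks fell into 6 regions, of which 2 were found in 2 lists each. One lay in intron 10 of 22 (chr8:113761536-113763815) and the other in intron 3 (chr8:113790503-113793366), and the peak over the start was in the sedentary SIT list alone. For H3K27me3 the same gene had 3 and 0 peaks in SIT, 1 and 0 in the left separate and 0 and 3 in the right separate arm, so its gain in SIT and in the left arm was not met in the right. With promoter peaks alone, with the widest 50% of each list, or with lists cut to equal numbers of peaks by width, no gene of the family was lost in 3 arms.

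Genes listed in both conditions differed in how much DNA their peaks covered. For H4K8ac in SIT, 16 of 18 such genes were covered over more bp after ELE, with a median log2 ratio of 1.07 against 0.67 for all genes. Mmp16 (16987 and 28247 bp) and Adam7 (6364 and 6585 bp) were the exceptions. In the left separate arm 10 of 13 were covered over less after ELE (median log2 ratio -0.45 against -0.89), with Adamts6, Adamts17 and Mmp17 the other way. In the right separate arm 14 of 16 were (-0.72 against -0.83), with Adamts20 and Mmp2 the other way. For H3K27me3, 21 of 21 genes were covered over more after ELE in SIT (median log2 ratio 0.93 against 0.72 for all genes) and 16 of 22 in the left separate arm (0.31 against 0.21), while 15 of 16 were covered over less in the right separate arm (-1.31 against -1.2), with Mmp7 the exception. The family thus moved with all genes in each of the 6 comparisons.

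Of 35 genes that act with these proteases, 29 had an assigned peak. Of these 29, 14 were listed for H4K8ac in 6 of 6 lists (19.3% of all genes with a peak) and 3 for H3K27me3 in 6 of 6 (16.5%). Among the inhibitors, Timp3 was listed in 3 H4K8ac lists and Reck, which restrains MMP and ADAM10 at the membrane, in 5, while Timp1, Timp2 and Timp4 had no assigned peak. Of the tetraspanins and iRhoms that carry ADAM10 and ADAM17 to the surface, Tspan5, Tspan14, Tspan17 and Tspan33 were listed in 6 H4K8ac lists and Tspan15 in 5, and Tspan33 was also listed in 5 H3K27me3 lists. Rhbdf1 was listed in 1 H4K8ac list, and Tspan10 and Rhbdf2 had no assigned peak. The LGI ligands of ADAM22 and ADAM23 were listed for H4K8ac in 6 lists (Lgi1 and Lgi3) and 2 lists (Lgi2), and Lgi4, of peripheral glia, in none. All 7 shed neuronal substrates were listed for H4K8ac in at least 1 list (79.9% of all genes), App, Cdh2, Nlgn1 and Epha4 in 6 lists, and Notch1 and Nrg1 were also listed for H3K27me3 in 6 lists and Epha4 in 2. Of the lecticans, which ADAMTS proteases cut, Vcan was listed for H4K8ac in 6 lists and for H3K27me3 in 3, and Ncan for H4K8ac in 2. Acan and Bcan were listed for H3K27me3 in 3 and 5 lists and never for H4K8ac. Of the other net components, Hapln1 and Tnr were listed for H4K8ac in 6 lists, and Hapln1 also for H3K27me3 in 2. Of the proprotein convertases, which activate the precursors, Pcsk5 was listed for H4K8ac in 6 lists and Pcsk6 for H3K27me3 in 6, and Furin, Pcsk6 and Pcsk7 for H4K8ac in 1.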

How the data were processed

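H4K8ac and H3K27me3 were mapped by CUT&RUN-seq in hippocampal nuclei. IgG samples were not analysed here. Bowtie2 2.4.1 was used for alignment by the authors, who called peaks with SEACR (stringent), annotated them with ChIPseeker 1.8.6 on mm10 and left out some exercised H4K8ac libraries, of SIT and of separate isolation, with a high false discovery rate. How libraries of a group were combined is not given in the sources used here. Per the file headers, a deposited table holds the position and width of every peak in bp, its annotation class, its distance to a start and a gene symbol (other values such as counts or signal are not in them), so no count model was used and depth is unknown.

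Genes with 1 or more assigned peaks counted as listed. Shares are complete counts over named genes, with no sampling interval. The sign-flip test ran on every gene with Benjamini-Hochberg adjustment and was tested on simulated data. Regions are peaks of a mark merged across lists where they shared 1 bp or more. Of the 31151 transcripts in the lists, 99.0% had the same start and end in GENCODE M21. The 40 promoter windows (RefSeq) were equal to the GRCm38.p6 genome, and 25 genes had none, among them Adam11, Adam30, Adamts5, Adamts6, Mmp2, Mmp9 and Mmp16. The protein motif named in the design was not analysed here. Genes, role groups and lists were chosen with earlier results of these data known. Genes were named if listed in 5 or 6 lists of a mark, changed alike in 3 arms, widest in a list or listed in 3 lists of both marks, or for a brain role (Adam10, Adam11, Adam17, Adam22, Adam23, Mmp2, Mmp3, Mmp9, Mmp14, Mmp24, Adamts1, Adamts4, Adamts5, Adamts18); other names complete a count, a role group or the chromosome 9 cluster and were chosen after their values were seen. Alternatives were to use promoter peaks alone, to drop distal intergenic peaks, to keep the widest 50% per list, to cut the longer list of an arm to the length of the shorter by width, to leave out the exercised separate lists, and to require a reciprocal overlap of 50%. Leaving out each list in turn was added after seeing the data. Python 3.11.15, numpy 2.4.6, pandas 2.3.3, scipy 1.17.1 and matplotlib 3.10.9 were used.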

Additional observations from a re-analysis of the deposited data

Results flagged for a closer look

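Arms differed in the direction of change with exercise, and the differences between arms were not tested. For H4K8ac the number of genes gained minus the number lost was 2 in SIT, -20 on the left (separate isolation) and -11 on the right. For H3K27me3 it was 12 in SIT, 2 on the left and -15 on the right. In each of the 6 cases the sign was that of the longer list, but for H3K27me3 on the left it held with all peaks of the full lists and in none of the 4 other settings tried: 2 genes were gained and 3 lost with promoter peaks, 3 and 5 with the widest 50%, 4 and 4 without distal intergenic peaks, and 3 and 6 at equal numbers of peaks. For H4K8ac on the right the sign turned at equal numbers of peaks, with 7 genes gained and 4 lost. The ELE list was the longer in SIT for both marks and on the left for H3K27me3, and the sedentary list in the other 3.

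Mmp24, the membrane-type MMP of neurons, had no assigned peak, but 1 list (H4K8ac, sedentary left separate) had a peak over its body that was assigned to BC029722. It was the only one of the 20 family genes without an assigned peak for which this was so.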

How the results depend on the processing

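Limits of these data are that each list is 1 unit with no replicate, that its depth is unknown, that genes are assigned by distance, and that list lengths differ between conditions. No paired analysis was possible because each group has 1 list, which carries no replicate number. That concerns pairing by mouse, while the marks were compared in pairs of condition and arm. The cause of the changes below was not tested, except that fewer peaks enter each stricter count by construction. The cut to equal numbers of peaks by width moved 11 of 16 values. H4K8ac counts became 3 gained and 7 lost on the left and 7 gained and 4 lost on the right. H3K27me3 counts became 3 gained and 2 lost for SIT, 3 and 6 on the left, and 1 and 4 on the right. The number of genes lost for H4K8ac in 3 arms became 0, as it did with promoter peaks alone and with the widest 50%.

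Promoter peaks alone moved 18 values of 35. Genes listed fell to 18 and 12 in the H4K8ac SIT lists (ELE before sedentary), 6 and 15 in the left and 8 and 14 in the right separate lists, and to 20 in the ELE SIT and 17 in the ELE left list of H3K27me3. In every H4K8ac list there were 3, and 3 had H4K8ac and no H3K27me3 in all pairs. H4K8ac was lost by 4 in SIT, 10 in the left arm, where 1 gained it, and 7 in the right arm. H3K27me3 was gained by 4 in SIT, gained by 2 and lost by 3 in the left arm, where the direction turned, and lost by 8 in the right arm.

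The widest 50% moved 14 of 35. Genes listed were 10 and 13 in the right separate H4K8ac lists, and 13, 17 and 20 in the sedentary SIT, ELE left and sedentary right H3K27me3 lists, with 5 in every H4K8ac list. H4K8ac was lost by 5 in SIT, by 13 in the left arm, where 1 gained it, and by 4 in the right arm. H3K27me3 was gained by 3 and lost by 5 in the left arm and lost by 9 in the right arm. Without distal intergenic peaks 33 of 35 values stayed within 1.5 times, while 6 genes gained H3K27me3 in SIT and 1 gained H4K8ac in the left arm. Without the ELE separate lists, 15 genes were in every H4K8ac list and 10 had H4K8ac and no H3K27me3 in all pairs, and the other 5 values stayed within 1.5 times. Leaving out each list in turn gave 9 to 11 genes in every H4K8ac list and 15 to 19 in every H3K27me3 list.

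At a reciprocal overlap of 50%, the share of the family's peaks that overlapped the other condition was 17.4 and 23.6% in the H4K8ac SIT lists, 46.2 and 11.0% in the left and 35.7 and 17.9% in the right lists, and for H3K27me3 27.3 and 62.8%, 44.8 and 50%, and 31.6 and 14.1%. At 1 bp it was 32.2 and 43.8%, 73.1 and 18.3%, and 59.5 and 28.6% for H4K8ac and 41.4 and 97.7%, 58.2 and 73.3%, and 97.4 and 31.8% for H3K27me3.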
